A study of Mus musculus with 6 samples.

Results

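Interleukin-6 and its relatives signal through the shared receptor chain gp130, and 8 genes of this pathway were examined in macrophages sorted from mouse skin wounds. They are the ligands Il6, Osm, Lif and Clcf1, the receptor chains Il6ra and Il6st (which encodes gp130), the transcription factor Stat3 and the inhibitor Socs3. The genes were chosen by symbol, and each matched 1 of the 15168 genes in the count table. Total RNA from cells sorted 3 days after wounding was submitted for mRNA sequencing in bulk, in 3 young and 3 aged samples. Young mice were 12 weeks old and aged mice 24 months old. All were female C57BL/6J wild-type animals with full-thickness dorsal wounds, with no transgene. The study's methods give isoflurane anaesthesia and buprenorphine pain relief for the wounding, and age was the contrast of the design. Cells were sorted as F4/80+ CD64+ after Liberase digestion of the wounds. The study's methods state that Ly6G+ cells were not gated out, which leaves room for some neutrophils in the sort. Samples are called here by age and set letter (young A to C, aged A to C). The sources used here do not say whether a sample came from 1 mouse or from several, nor which of the 2 animal facilities it came from, so p-values measure only the spread between these samples, which may be technical.

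Each of these ligands signals through gp130 paired with other receptor chains, some of which are shared between ligands. Interleukin-6 binds its receptor alpha chain on the cell surface, or a shed soluble form of it, and the complex then engages gp130. Janus kinases bound to gp130 phosphorylate STAT3, which enters the nucleus and switches on target genes. Socs3 is one such target, and its protein binds gp130 and the kinases and shuts the signal off. In skin wounds the pathway is known for its part in leukocyte recruitment and in the migration and growth of keratinocytes.

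All 8 genes were higher in the aged than in the young macrophages. Levels are given in CPM, the count of a gene relative to the library size, scaled between samples by the TMM method. Differences are log2 fold changes of aged against young with their standard error (SE), from the quasi-likelihood test of edgeR, and adjusted p values are by Benjamini-Hochberg over the 11878 genes tested. The log2 fold changes ran from 0.68 for Stat3 to 1.73 for Socs3, with a median of 1.22, against -0.02 over all tested genes. Every one of the 8 passed an adjusted p of 0.05, where 9.73% of all tested genes were called higher in aged samples. A rise of over 2-fold was called in 6 of the 8, all but Il6ra and Stat3, where the share of all tested genes was 4.59%. All 8 had every aged sample above every young sample, as did 19.2% of the tested genes. In bulk RNA, more cells of a type and more RNA per cell cannot be told apart, nor can fewer cells and less RNA per cell.

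These calls rested on few samples. With young C left out, 0 of the 8 passed the adjusted threshold, although all 8 kept an unadjusted p under 0.05 in edgeR, and their adjusted p ran from 0.0565 for Socs3 to 0.174 for Stat3. The number called was 2 without aged C, 3 without young B, 5 without aged A, 6 without aged B and 8 without young A. Over all tested genes, the calls in both directions fell from 2103 with all samples to 218 without young C. The direction held for all 8 genes in each of these fits.

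**Figure D1:**
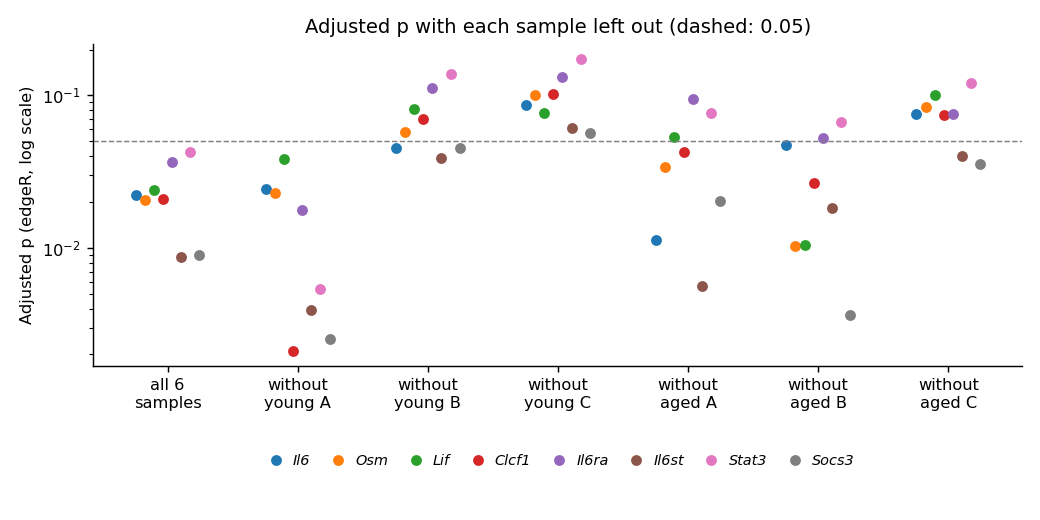
Adjusted p of each gene (edgeR, log axis) with all 6 samples and with each sample left out in turn. The dashed line marks 0.05. All 8 points lie below it with all 6 samples and without young A, and all 8 lie above it without young C.

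Stretches before the RefSeq starts of 3 of the genes are shown because they hold short motifs of the factors that the pathway and wound inflammation are known to use. Sequences come from RefSeq (GRCm38.p6), in which 6 of the 8 genes were matched, all but Osm and Clcf1. They run 5′ to 3′ on the gene's strand within the 250 bases before the start that RefSeq gives, leaving out bases in an annotated exon. That start is the one in the count table for Il6 and lies 11 bases inside it for Lif. For Socs3 it lies 681 bases inside, at 117969366, so that the printed stretch falls within the gene as the count table bounds it, between annotated exons. Capitals mark motif matches. Those in Il6 are an AP-1, a C/EBP and an NF-κB motif in that order, those in Lif an AP-1 and an NF-κB motif, and that in Socs3 a STAT motif.
Il6, chr5:30012864-30013113, plus strand: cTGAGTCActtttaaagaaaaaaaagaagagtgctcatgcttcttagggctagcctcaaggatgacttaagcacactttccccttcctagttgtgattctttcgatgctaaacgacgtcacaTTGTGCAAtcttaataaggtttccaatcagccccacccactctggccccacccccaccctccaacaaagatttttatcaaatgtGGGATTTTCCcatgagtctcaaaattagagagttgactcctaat
Lif, chr11:4257318-4257556, plus strand: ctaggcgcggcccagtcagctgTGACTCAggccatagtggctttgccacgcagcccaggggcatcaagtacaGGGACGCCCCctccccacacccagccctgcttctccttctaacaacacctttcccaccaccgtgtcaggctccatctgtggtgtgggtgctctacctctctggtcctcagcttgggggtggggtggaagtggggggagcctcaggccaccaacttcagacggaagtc
Socs3, chr11:117969452-117969616, minus strand: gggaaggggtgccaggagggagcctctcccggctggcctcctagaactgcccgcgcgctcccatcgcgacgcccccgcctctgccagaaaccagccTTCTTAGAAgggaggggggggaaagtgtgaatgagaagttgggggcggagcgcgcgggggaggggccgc

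The motifs were searched as TTCNNNGAA (STAT), TGANTCA (AP-1), TTNNGCAA (C/EBP) and the NF-κB motif, on both strands of the whole windows of 250 bases. The STAT motif lay in 1 of the 6 windows and in 7.02% of 32851 windows of the same length. The AP-1 motif lay in 2 of 6 and in 6.75% of all windows, the C/EBP motif in 1 of 6 and in 9.56%, and the NF-κB motif in 2 of 6 and in 7.25%. The windows of Il6ra, Il6st and Stat3 held none of these letters. A match is a description of the letters and not a measured binding site, since no binding was measured here.

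The 4 ligands all rose in aged macrophages. Il6 (chr5:30013114-30019981, plus strand, mm10) encodes interleukin-6, the founding member of the family. Its level was 6.31, 16.8 and 14.3 CPM in young A, B and C and 19.9, 49.9 and 46.0 CPM in aged A, B and C. Aged A was the lowest aged sample and lay only a little above young B, while young A lay well below the other young samples. The young mean was 12.5 ± 5.47 CPM and the aged mean 38.6 ± 16.3 CPM (SD, n = 3 each), which gave a log2 fold change of 1.64 (SE 0.39, edgeR adjusted p = 0.0221). Il6 lost the call without young C (adjusted p = 0.0864) and without aged C (adjusted p = 0.0758).

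Osm (chr11:4236420-4241026, plus strand) encodes oncostatin M, a cytokine made by activated macrophages and neutrophils. It was measured at 834, 853 and 616 CPM in young A, B and C and at 1484, 1153 and 2144 CPM in aged A, B and C. The aged samples spread widely, from aged B at the bottom to aged C at the top, and stayed above the young ones. Means of 768 ± 132 CPM (young) and 1594 ± 505 CPM (aged) gave a log2 fold change of 1.05 (SE 0.25, adjusted p = 0.0206). The log2 fold change was 0.79 without aged C (adjusted p = 0.0834), and the call was also lost without young C (0.1001) and without young B (0.0572).

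Lif (chr11:4257557-4272514, plus strand) encodes leukaemia inhibitory factor and lies next to Osm on the same chromosome. It was the least abundant of the 8, at 2.38, 2.17 and 3.17 CPM in young A, B and C and 7.29, 4.08 and 8.77 CPM in aged A, B and C. Aged B was nearest to the young samples. The mean rose from 2.57 ± 0.528 to 6.71 ± 2.40 CPM (log2 fold change 1.38, SE 0.34, adjusted p = 0.0238). Lif missed the threshold without young B (adjusted p = 0.0809), young C (0.0762), aged A (0.0536) or aged C (0.1001).

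Clcf1 (chr19:4214238-4223490, plus strand) encodes cardiotrophin-like cytokine factor 1, a ligand of the ciliary neurotrophic factor receptor that signals with gp130 and the LIF receptor. Young A, B and C held 20.2, 9.50 and 11.3 CPM and aged A, B and C held 30.7, 26.5 and 32.9 CPM. The aged samples lay close together, and young A was the young sample nearest to them. The mean was 13.7 ± 5.72 CPM among the young and 30.0 ± 3.26 CPM among the aged samples (log2 fold change 1.13, SE 0.27, adjusted p = 0.0209). The adjusted p was 0.0702 without young B, 0.102 without young C and 0.0748 without aged C. The annotated exons of Clcf1 share 311 bases with AC109138.7, a gene on the same strand that was not analysed here, so its counts are uncertain to that extent.

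**Figure D2:**
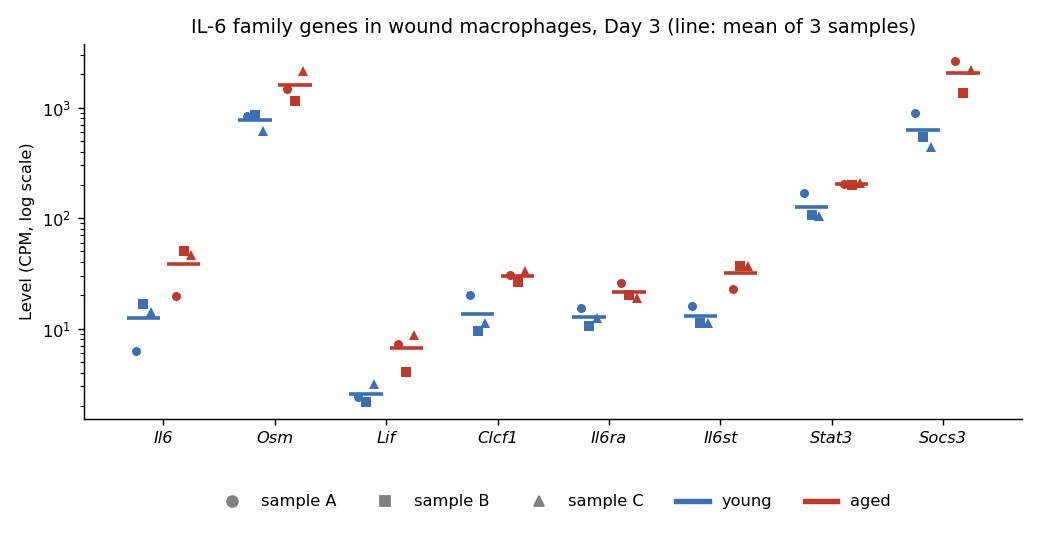
Level of each gene in each sample (CPM, log axis), young samples in blue and aged samples in red, with a line at the mean of the 3 samples of an age. In each of the 8 genes the 3 red points lie above the 3 blue points, and Osm and Socs3 stand far above the others in level.

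Both receptor chains rose as well, and the fold change of Il6st was the larger, a difference that was not tested. Il6ra (chr3:89864059-89913196, minus strand) encodes the alpha chain that binds interleukin-6. It stood at 15.4, 10.5 and 12.6 CPM in young A, B and C and at 25.6, 20.1 and 19.0 CPM in aged A, B and C. The highest young and the lowest aged sample were close to each other. Its young mean was 12.8 ± 2.45 CPM and its aged mean 21.6 ± 3.57 CPM, with a log2 fold change of 0.75 (SE 0.21, adjusted p = 0.0365). The call held only when young A was the sample left out. The other fits gave adjusted p values of 0.113 without young B, 0.132 without young C, 0.0951 without aged A, 0.0527 without aged B and 0.0754 without aged C. An antisense gene, Gm42809, overlaps 242 exon bases of Il6ra but held only 21 counts over all samples.

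Il6st (chr13:112464070-112510086, plus strand) encodes gp130, the chain shared by the receptors of interleukin-6, oncostatin M, LIF and Clcf1. Its level was 16.1, 11.3 and 11.3 CPM in young A, B and C and 23.0, 36.7 and 36.7 CPM in aged A, B and C. Young B and C were nearly equal, as were aged B and C, while the A samples of both ages lay nearer to each other. Its mean went from 12.9 ± 2.76 CPM up to 32.1 ± 7.91 CPM, at a log2 fold change of 1.31 (SE 0.24, adjusted p = 0.00878). Its call was lost only without young C (adjusted p = 0.0614).

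Stat3 and Socs3 stand downstream of gp130, and both rose. Stat3 (chr11:100885098-100939540, minus strand), the transcription factor that gp130 signalling activates by phosphorylation, showed the smallest rise of the 8 genes with all samples. That rank was not tested, and the log2 fold change of Il6ra was the smaller without young A or aged A. The level of Stat3 was 168, 107 and 105 CPM in young A, B and C and 205, 198 and 206 CPM in aged A, B and C. The aged samples were almost equal, and young A lay between the other young samples and the aged ones. Means of 127 ± 35.5 and 203 ± 4.22 CPM gave a log2 fold change of 0.68 (SE 0.20, adjusted p = 0.0423). Like that of Il6ra, this call held only when young A was left out (adjusted p = 0.00541). The adjusted p was 0.138 without young B, 0.174 without young C, 0.0766 without aged A, 0.0670 without aged B and 0.120 without aged C. With no filter on low counts the adjusted p of Stat3 was 0.0519. Stat3 shares 72 exon bases with Stat5a on the opposite strand, and reads there cannot be told apart if the counting did not use strand, which the sources used here do not state.

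Socs3 (chr11:117966079-117970047, minus strand), with the STAT motif shown above before its RefSeq start and inside these bounds, showed the largest rise of the 8 genes with all samples. That rank was not tested, and the log2 fold change of Il6 was the larger without young B, young C or aged A. Socs3 was measured at 898, 541 and 436 CPM in young A, B and C and at 2648, 1361 and 2215 CPM in aged A, B and C. Aged B, the lowest aged sample, still stood well above young A, the highest young sample. The young mean was 625 ± 242 CPM and the aged mean 2075 ± 655 CPM, with a log2 fold change of 1.73 (SE 0.31, adjusted p = 0.00898). Only without young C was the call lost (adjusted p = 0.0565).

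Levels were then compared between the genes per kilobase of merged exon. In young macrophages the order of the mean levels was Osm at 338, Socs3 at 216, Stat3 at 13.3, Il6 at 5.13, Clcf1 at 3.59, Il6ra at 1.48, Il6st at 1.16 and Lif at 0.592 CPM per kilobase. Neighbours whose samples overlapped were Osm and Socs3, Il6 and Clcf1, and Il6ra and Il6st. In aged macrophages the order was Socs3 at 718, Osm at 701, Stat3 at 21.3, Il6 at 15.9, Clcf1 at 7.89, Il6st at 2.89, Il6ra at 2.50 and Lif at 1.54 CPM per kilobase. The same neighbouring pairs overlapped there, so the changes of place between Osm and Socs3 and between Il6ra and Il6st lay within the spread of the samples.

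Samples of one age did not rank alike in all genes. Young A was the highest young sample in 5 of the 8 genes (Clcf1, Il6ra, Il6st, Stat3 and Socs3) but the lowest in Il6. Among the aged samples, aged C was highest in 5 (Osm, Lif, Clcf1, Il6st and Stat3) and aged B lowest in 5 (Osm, Lif, Clcf1, Stat3 and Socs3), while aged B was the highest in Il6. The Il6 profile over the 6 samples was compared with the others by the root mean square difference of log2 CPM, each gene centred on its own mean. Among the members Il6st came nearest, at 0.652, and Socs3 was farthest, at 0.985. Outside the pathway list described next, the 3 nearest tested genes were Dpysl3 (0.281), Phlda1 (0.349) and Ppbp (0.362). Phlda1 and Ppbp, the latter a platelet chemokine gene, had log2 fold changes of 1.49 and 2.02 with adjusted p values of 0.0145 and 0.00967. Dpysl3 lay at or under 2.29 CPM in every sample. It could pass the filter on low counts only through the aged samples, so its adjusted p of 0.0512 is not read as a result.

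The wider pathway was described with a list of 68 genes, which includes the 8. The list was chosen with earlier results of these data known. Its shares, here and by group below, are therefore a description and not independent support. Of the 68 genes, 63 were in the count table and 61 were tested. In aged macrophages 27 rose and 1 fell (7.97% of all tested genes were called lower), and the other 33 did not pass the test. Without the 8 genes, 19 of 53 rose (35.8%, against 9.73% of all tested genes) and 1 fell, with a median log2 fold change of 0.40, against -0.02 over all tested genes. Without young C, 4 genes of the whole list (Cish, Jak2, Il31ra and Bcl3) were called higher and 0 lower in edgeR, where 3 were lower at an unadjusted p under 0.05. The number called higher was 13 without young B and 10 without aged C. Il31ra, counted among the 27, the 19 and the 4, could pass the filter on low counts only through the aged samples.

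Of the other ligands, those tested were not called. Il27, a subunit of interleukin-27, was at 0.719, 0.587 and 0.661 CPM in young A, B and C and 0.210, 1.02 and 1.17 CPM in aged A, B and C, which overlapped (adjusted p = 0.761). Its partner Ebi3 had means of 18.8 ± 2.78 CPM (young) and 16.3 ± 1.41 CPM (aged) (adjusted p = 0.462). Il11, a cytokine of the same family, was too low to be tested and reached its highest level in aged B, at 1.91 CPM. Il31, Ctf1, Ctf2, Cntf and the receptor gene Cntfr were not analysed here.

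The receptor chains that pair with gp130 for oncostatin M and LIF were not called. Osmr, the oncostatin M receptor, was too low to be tested, at or under 0.247 CPM in every sample but aged B, where it was 1.08 CPM. Lifr, the LIF receptor, had means of 28.7 ± 8.54 CPM (young) and 32.3 ± 0.742 CPM (aged) with overlapping samples (log2 fold change 0.17, SE 0.21, adjusted p = 0.603). Il11ra1, the interleukin-11 receptor, went from 18.4 ± 1.65 to 15.8 ± 2.93 CPM (adjusted p = 0.457). Il27ra, the interleukin-27 receptor, went from 1.30 ± 0.178 to 0.827 ± 0.221 CPM (adjusted p = 0.325), with every aged sample below every young one, as in 19.0% of the tested genes. Il31ra, a gp130-like chain of the interleukin-31 receptor, held 1 count over the young and 65 counts over the aged samples. It could pass the filter on low counts only through the aged samples, so its call is not read as a result. Its aged to young ratio was 70.8, with a 95% interval of 12.3 to 2838 that covers counting error only. In CPM it lay at or under 0.0553 in young samples and at 1.75, 1.15 and 1.36 in aged A, B and C, a low level throughout.

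Of the proteases that shed the interleukin-6 receptor, Adam10 rose from 54.2 ± 12.5 to 101 ± 8.34 CPM (log2 fold change 0.90, SE 0.19, adjusted p = 0.0156). Adam17 had means of 78.8 ± 12.5 and 117 ± 14.3 CPM and did not pass (log2 fold change 0.56, SE 0.18, adjusted p = 0.0503), although all its aged samples lay above the young ones and DESeq2 and limma-voom called it.

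Of 4 kinases and STATs, Jak2 and Stat3 rose, against 9.73% of all tested genes. Jak2, a kinase that gp130 and many other cytokine receptors use, rose from 21.1 ± 3.47 to 62.5 ± 8.40 CPM (log2 fold change 1.57, SE 0.19, adjusted p = 0.00195). Jak1, the main kinase bound to gp130, did not pass (log2 fold change 0.40, SE 0.15, adjusted p = 0.0907), nor did Tyk2, another kinase of the family (log2 fold change 0.20, SE 0.22, adjusted p = 0.542).

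The relays that link gp130 to the MAP kinase and PI3 kinase routes were mostly not called. The exception among the 6 (16.7%, near the 9.73% of all tested genes) was the adaptor Shc1, with a log2 fold change of 0.65 (SE 0.17, adjusted p = 0.0311). Gab1 and Gab2, docking proteins, had log2 fold changes of 0.51 and 0.56 (adjusted p = 0.0781 and 0.0905). Ptpn11, the phosphatase SHP2, had one of 0.40 (adjusted p = 0.239).

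Among 9 genes that restrain cytokine signals, 4 rose and 1 fell, where 9.73% of all tested genes were called higher and 7.97% lower. All 4 were of the SOCS family, with Socs3 joined by Cish, Socs1 and Socs2. Cish went from 54.6 ± 6.03 to 182 ± 31.1 CPM (log2 fold change 1.74, SE 0.18, adjusted p = 0.00127). Socs1, known as a brake on interferon signals, had a log2 fold change of 1.65 (SE 0.36, adjusted p = 0.0172), and Socs2 one of 1.50 (SE 0.26, adjusted p = 0.00815). The phosphatase gene Ptpn6 (SHP1), named after its values were seen, fell by 1.08 on the log2 scale (SE 0.28, adjusted p = 0.0270), with young A, B and C at 110, 271 and 214 CPM and aged A, B and C at 89.5, 93.6 and 98.2 CPM. Its call held only when young A was left out, with an adjusted p of 0.0974 without young B, 0.107 without young C, 0.0630 without aged A, 0.0547 without aged B and 0.0834 without aged C.

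Of 28 genes known to respond to STAT3, listed without a direction, 12 rose, 16 did not pass and 0 fell. Of all tested genes, 9.73% were called higher and 7.97% lower. Their median log2 fold change was 0.56, against -0.02 over all tested genes. In the lower direction 0 had an unadjusted p under 0.05 in edgeR, and 0 were called by DESeq2 or limma-voom, which each called 13 higher. Without young C, 1 was called higher (Bcl3), 0 were called lower and 2 were lower at an unadjusted p under 0.05. The 4 with the lowest adjusted p were Hif1a, a hypoxia response factor (log2 fold change 1.22, adjusted p = 0.00810), Bcl3, a regulator of NF-κB (0.93, adjusted p = 0.0106), the kinase gene Pim1 (1.04, adjusted p = 0.0113) and Zc3h12a, whose protein degrades Il6 mRNA (1.41, adjusted p = 0.0130). Genes of this group respond to many other signals, and activation of STAT3 by phosphorylation was not measured.

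**Figure D3:**
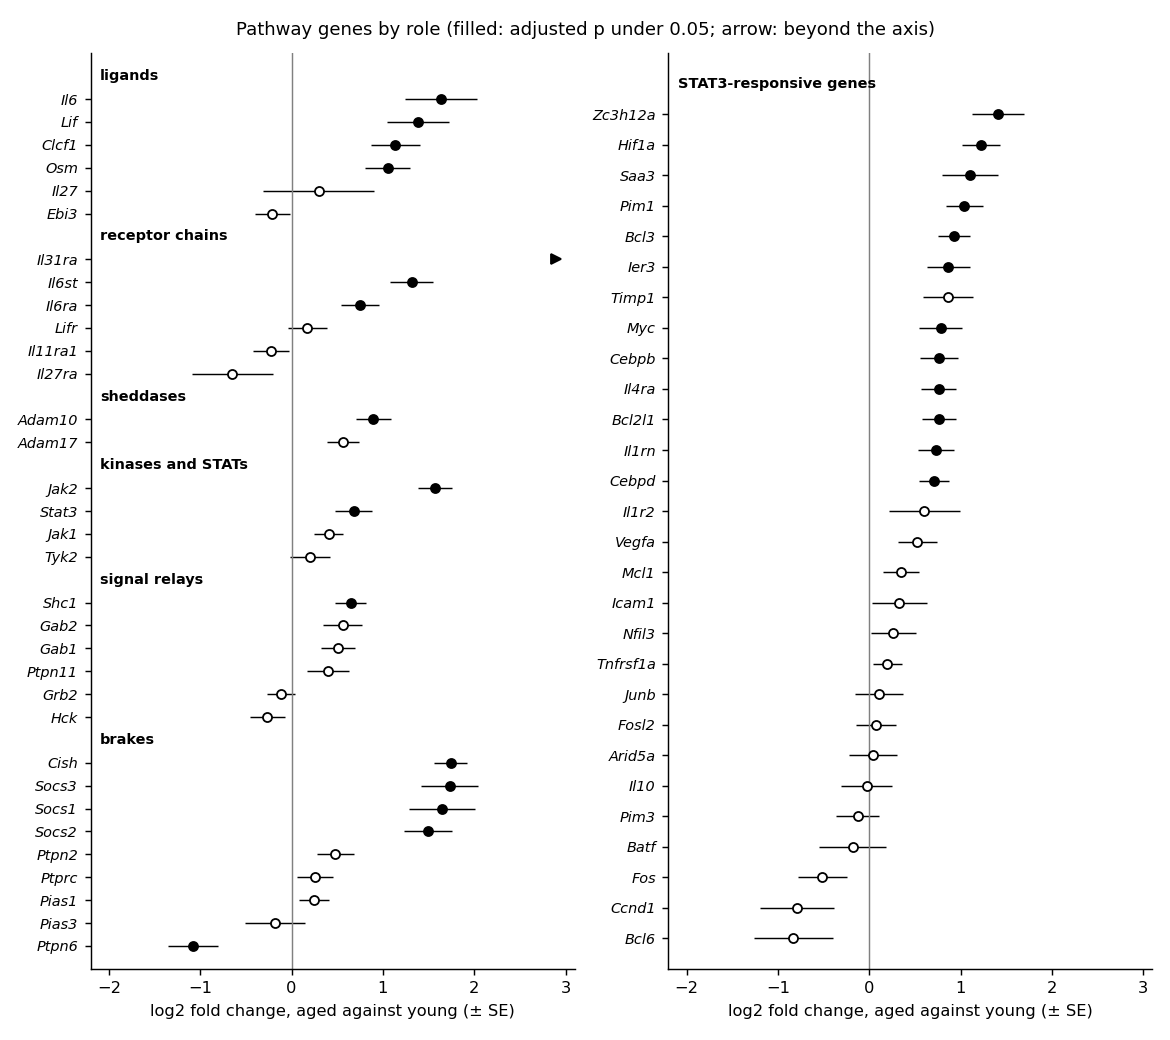
Log2 fold change of aged against young samples (± SE, edgeR) for the 61 tested genes of the pathway list, by role. Filled points have an adjusted p under 0.05. The arrow marks Il31ra, which lies beyond the axis and could pass the filter on low counts only through the aged samples. Of the points, 27 are filled to the right of 0 and 1, Ptpn6, to the left.

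The label of the sorted cells was set against marker genes. The macrophage markers Fcgr1 (CD64), Csf1r, Cd68 and Adgre1 (F4/80) were present in all samples, and 2 of the 8 markers on the list were called, in opposite directions, where 9.73% of all tested genes were called higher and 7.97% lower. Adgre1 had a log2 fold change of -0.69 (adjusted p = 0.0292) and Itgam (CD11b), which was part of the sort gate, one of 0.99 (adjusted p = 0.00735). The summed level of 8 macrophage markers ran from 27967 to 43048 CPM among the young and from 20174 to 25536 CPM among the aged samples, most of it from Lyz2. Of 15 neutrophil markers 14 were in the table, and their sum ran from 599 to 1054 CPM among the young and from 853 to 1591 CPM among the aged samples. Of these, 5 were called higher with age (Cxcr2, Retnlg, Lcn2, Cd177 and Il1f9), against 9.73% of all tested genes, while Ly6g, the defining marker, was at 6.14 to 10.9 CPM (young) and 6.18 to 9.60 CPM (aged) (log2 fold change 0.05). By sample, the neutrophil sum was 599, 1054 and 911 CPM in young A, B and C and 1591, 853 and 1516 CPM in aged A, B and C. The samples ranked in the same order as this sum in Il6 among the young and in Socs3 among the aged samples, and in another order in the other genes. Aged B, lowest of the aged samples in the sum, was lowest in Osm, Lif, Clcf1, Stat3 and Socs3 too, but highest in Il6. It was also the highest sample in Il11 and Osmr, which were too low to be tested. Young A, lowest of the young samples in the sum, was lowest in Il6 and highest in Clcf1, Il6ra, Il6st, Stat3 and Socs3. Keratinocyte markers (6 genes) summed to 113 CPM in aged B and to at most 1.96 CPM in any other sample, and fibroblast markers (7 genes) to 120 CPM in aged B and at most 41.1 CPM elsewhere. Without aged B, 6 of the 8 genes were called. The part of neutrophils, keratinocytes and fibroblasts in the levels of the 8 genes was not tested.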

How the data were processed

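Sorted wound macrophages of 3 young and 3 aged samples were sequenced in bulk. Reads were aligned by the authors with STAR 2.7.3a and quantified on mm10 with Ensembl transcripts 102 in Partek Flow. The deposited values are expected counts for each gene, not normalised, and no gene totals under 10 counts. Libraries were made by SMART-Seq v4 amplification, and the strand setting is not given in the sources used here. The authors' second table, of scaled counts, fold changes and p-values from their DESeq2 comparison, was not used.

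Counts were rounded (30.7% to 34.0% of values were not whole). The design had named raw counts. Totals ran from 15270103 to 17927483, so that 1 count was worth 0.0553 to 0.0701 CPM. In R 4.3.3, edgeR 4.0.16 was run with TMM scaling and filterByExpr by age. Aged and young samples were compared by its quasi-likelihood test, p values of 11878 genes were adjusted by Benjamini-Hochberg, and calls were made at an adjusted p under 0.05. The SE is the log2 fold change divided by the square root of F. CPM used TMM-scaled totals, and profiles log2 CPM with a prior count of 2. The script was tested on simulated data, where it missed part of the 2-fold changes and called some unchanged genes. Exon lengths and overlaps came from GENCODE annotation of the same build (GRCm38). Alternatives were DESeq2 size factors, DESeq2 1.42.0, limma-voom (3.58.1), no filter, at least 10 counts in every sample, a replicate block, a 2-fold threshold and each sample left out.

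The genes, lists and markers were chosen with earlier results of these data known. Named were the 8 genes, every ligand and receptor chain of the list in the table, the 4 with the lowest adjusted p in each other group, and the 3 tested genes outside the list most like Il6. A further 2 genes of the pathway list are not reported here and were left out of its counts.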

Additional observations from a re-analysis of the deposited data

How the results depend on the processing

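All 96 values of the 8 genes under the 12 alternatives kept their direction, and 71 kept their side of the threshold. DESeq2 and limma-voom each called all 8. With no filter on low counts Stat3 alone lost its call (log2 fold change 0.68). With each sample left out in turn, the log2 fold change ran from 1.31 to 1.95 for Il6, 0.79 to 1.25 for Osm, 1.15 to 1.66 for Lif, 0.93 to 1.53 for Clcf1, 0.61 to 0.91 for Il6ra, 1.21 to 1.51 for Il6st, 0.57 to 0.94 for Stat3 and 1.52 to 2.09 for Socs3. In those fits the members called ran from 0 (without young C) to 8, the genes called in all from 218 to 2702, the pathway list genes called higher from 4 to 29 and those called lower from 0 to 1. These fits have 1 sample fewer, and any other cause was not tested. A 2-fold threshold, stricter by construction, left 1044 genes in all and 15 higher in the pathway list. With the set letter as a replicate block, 8 members and 2114 genes were called, against 2103 without it. The sources used here do not say what a set letter stands for. Deviations of same-lettered samples correlated across genes at 0.181 (A), -0.0206 (B) and 0.115 (C). Aged A and aged C correlated best with the young sample of their own letter, and aged B with young C (0.139). Depth limits Il11, Osmr and Il31ra, which lie at a few counts in several samples.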

Other observations

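Markers of other cell types varied between single samples. Mast cell genes were at 23.5, 15.1 and 7.33 CPM for Cpa3 in young A, B and C and at 17.7 CPM in aged A, but Cpa3, Mcpt4 and Cma1 were listed at 0 in aged B and C. The sum of 5 mast cell markers was 25.3 to 94.1 CPM in the young samples and 61.8, 0.255 and 0.0618 CPM in aged A, B and C, with adjusted p values of 0.289 or more for the 4 that were tested.

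Pecam1, an adhesion molecule of endothelial cells, platelets and leukocytes, rose from 10.1, 7.16 and 6.80 CPM in young A, B and C to 24.4, 25.1 and 28.3 CPM in aged A, B and C (log2 fold change 1.69, SE 0.21, edgeR adjusted p = 0.00220). Of the other endothelial markers, Cdh5 and Emcn were each under 1 CPM in every sample, and Kdr and Vwf, at or under 2.97 and 2.10 CPM, had log2 fold changes of -0.40 and -0.38 (adjusted p = 0.634 and 0.612). Il1f9, an interleukin-1 family gene from the neutrophil list, went from 18.9, 22.2 and 19.1 CPM in young to 158, 58.8 and 77.7 CPM in aged samples (log2 fold change 2.29, adjusted p = 0.00379). Dendritic cell markers summed to 16.1 to 54.7 CPM (young) and 30.3 to 93.8 CPM (aged) and were highest in the A samples of each age, with adjusted p values of 0.0860 or more. T cell markers summed to 2.58 to 4.22 CPM (young) and 2.16 to 3.71 CPM (aged). Of these, Cd4 fell by 1.76 on the log2 scale (SE 0.50, edgeR adjusted p = 0.0386), from 2.27, 2.82 and 1.72 CPM in young A, B and C to 0.350, 1.15 and 0.494 CPM in aged A, B and C. Cd4 could pass the filter on low counts only through the young samples, so its call is not read as a result. Trac, the other T cell marker tested, had a log2 fold change of 0.91 (adjusted p = 0.335), and Cd3e, too low to be tested, was at 1.19, 0.955 and 0.185 CPM in aged A, B and C and at most 0.411 CPM in young samples. The B cell markers stayed at or under 0.764 CPM in all samples. These genes were named after their values were seen.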
